A study of Mus musculus with 6 samples.

Results

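The miR-30 family was examined in small RNA libraries of melan-alpha, a pigmented melanocyte line of mouse skin origin that grows without limit in culture. Members were all mouse-named rows of the deposited microRNA table for miR-30a, miR-30b, miR-30c, miR-30d or miR-30e, whichever arm and end variant they stood for. This rule found 11 of the 1560 rows, of which 506 have a mouse name. 5 rows were 5p arms and 6 were 3p arms, with 1 row for each arm and no rows for further end variants. Whether a row pools reads of other end variants of its arm is not stated. All 11 passed the filter on low counts, as did 441 rows of the whole table. The 3 libraries of the MITF overexpression group came from cells given mouse MITF by lentiviral infection, MITF being the main transcription factor of pigment cells. The 3 control libraries have the genotype label Mitf_control, and whether those cells received an empty virus is not stated in the labels. Cells of both groups grew in RPMI medium with 10% fetal bovine serum. All 6 libraries are labelled extracellular vesicle, although the protocol in the labels describes collecting cells, so the values are of libraries labelled as vesicle RNA.

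MiR-30 microRNAs are processed from hairpin precursors whose 5p strand is usually the one loaded into Argonaute, and they silence messenger RNAs that pair with the seed near their 5′ end. The family is known in many tissues for restraining epithelial-mesenchymal transition, with Snai1 among its reported targets, and miR-30a is known for repressing the autophagy gene Beclin 1. In human melanoma, miR-30b and miR-30d have been reported to promote invasion by repressing the glycosyltransferase GALNT7. The results below ask how much of each member the libraries held and whether the members differed together between the groups.

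The 5p sequences show what the members share and where they part. They are given as the deposited table lists them, in DNA letters 5′ to 3′, with the seed at bases 2 to 8 in capitals.
miR-30a-5p: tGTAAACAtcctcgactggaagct
miR-30d-5p: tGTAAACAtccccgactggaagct
miR-30e-5p: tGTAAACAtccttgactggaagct
miR-30b-5p: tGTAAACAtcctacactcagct
miR-30c-5p: tGTAAACAtcctacactctcagct
All 5 carry one seed and share their first 11 bases, and no other row of the table has that seed at those positions. MiR-384, a microRNA outside the family with the same seed, had no row. Counting from 1 at the 5′ end, miR-30d-5p differs from miR-30a-5p by T12C alone and miR-30e-5p differs from miR-30a-5p by C13T alone. MiR-30b-5p and miR-30c-5p share their first 18 bases with each other but only 12 with miR-30a-5p. The 5p sequences therefore form a group of miR-30a, d and e and a group of miR-30b and c, which differ in the 3′ part. The rows of miR-30a, d and e are named as 2 bases longer than the reference microRNA and that of miR-30c as 1 base longer. 7 of the 11 arms were found by name in the extract of RefSeq's microRNA table (GRCm38.p6) that was used. That extract had no entry for Mir30b or Mir30d, so their arms could not be compared. For miR-30a, miR-30c and miR-30e the longer 5p sequence was found whole in the RefSeq hairpins, so the added bases match the precursor.

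The 3p sequences divide in the same way, and they are shown because they alone tell the miR-30c precursors apart.
miR-30a-3p: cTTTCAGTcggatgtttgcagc
miR-30d-3p: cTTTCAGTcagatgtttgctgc
miR-30e-3p: cTTTCAGTcggatgtttacagc
miR-30b-3p: cTGGGATGtggatgtttacgtc
miR-30c-1-3p: cTGGGAGAgggttgtttactcc
miR-30c-2-3p: cTGGGAGAaggctgtttactct
The 3p arms of miR-30a, d and e share one seed, those of the miR-30c precursors share another, and miR-30b-3p has a seed of its own. None of these is the seed of the 5p arms. Both miR-30c 3p arms hold GGAG, a motif reported for microRNA loading into vesicles, which was searched in the strand as listed and was present in 79 (17.9%) of the 441 tested rows. The 9 other miR-30 rows do not hold these letters.

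The family is encoded at 3 loci, and each locus holds a precursor from either sequence group. Positions are from GENCODE M21 on GRCm38, which is not the build of the authors' files. Mir30a lies on the plus strand of chromosome 1 at 23272269 to 23272339, outside any longer annotated gene, and Mir30c-2 starts 19432 bases further on, at 23291701 to 23291784, in an exon of the long noncoding RNA Gm27028. Mir30e and Mir30c-1 lie on the minus strand of chromosome 4, at 120772606 to 120772697 and 120769534 to 120769622, in introns of Nfyc, which encodes a subunit of the transcription factor NF-Y. Mir30b and Mir30d lie on the minus strand of chromosome 15, at 68337415 to 68337510 and 68341208 to 68341289, and Mir30d overlaps an exon of the long noncoding RNA Gm20732. The precursor of miR-30a shows how the arms sit in a hairpin. Here the RefSeq sequence is in RNA letters, with the reference 5p and 3p arms in capitals.
Mir30a hairpin: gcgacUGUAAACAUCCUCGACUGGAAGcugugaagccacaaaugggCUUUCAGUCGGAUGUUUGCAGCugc

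The libraries held 279142 to 475977 tabulated reads, and reads without molecular identifiers are not independent molecules. The melanocyte microRNAs miR-211 and miR-204 were listed to check the cell type. Their summed level was 1976 to 2771 CPM in controls and 4565 to 5946 CPM with MITF overexpression. CPM are reads relative to one common total per library, after TMM scaling. Most of the melanocyte sum was miR-211-5p, at 1906, 1880 and 2640 CPM in controls and 4220, 5220 and 4333 CPM with MITF overexpression. MiR-204 was seen mainly as its 3p arm, at 42.5, 44.3 and 56.5 CPM in controls. MiR-204-5p had 0 reads in every control and 5, 9 and 0 with MITF overexpression. Markers of blood cells, liver and mesenchyme also differed with the groups. The summed level of 9 rows of blood cell microRNAs was 1643 to 2563 CPM in controls and 4806 to 8749 CPM with MITF overexpression, with 4 of 7 tested rows higher past the test, while 2 of the 9 rows, miR-223-5p and miR-142a-3p, were at 0 in every control and miR-486a had no row. MiR-122, of liver, summed to 8848 to 16385 CPM and to 22727 to 102987 CPM. The 8 mesenchymal rows summed to 5711 to 6529 CPM and 7093 to 10020 CPM, with 3 of 7 tested rows higher. Most of the mesenchymal sum was miR-143-3p, which did not pass (adjusted p = 0.155 by edgeR). MiR-199a-5p, which passed, stood at 456, 65.6 and 50.7 CPM with MITF overexpression. The blood, liver and mesenchymal sums were all highest in MITF overexpression replicate 1. All 3 tested melanocyte rows and the 1 tested miR-122 row were also higher past the test. Among all 441 tested rows, 9.98% were higher past the test. In the endothelial class and the keratinocyte and epithelial class no row passed the test and the groups overlapped. Endothelial miR-126a ran from 2233 to 2409 CPM in controls and stood at 9080, 1825 and 2926 CPM with MITF overexpression. The 6 keratinocyte and epithelial rows summed to 51.9 to 141 CPM and 58.5 to 315 CPM, and miR-141 had no row. The part of these other sources in the miR-30 values was not tested. In bulk libraries, fewer contributing cells and less RNA per cell cannot be told apart.

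No miR-30 row passed the test between the groups, and the members did not all point one way. The 5p arms of miR-30a and miR-30d, the most abundant members, had lower levels in each MITF overexpression library than in any control, with log2 fold changes of -0.79 ± 0.25 and -0.63 ± 0.24 (SE). MiR-30b-5p and miR-30c-5p stood at near equal levels in the groups, with log2 fold changes of -0.01 ± 0.21 and 0.07 ± 0.21. By edgeR's quasi-likelihood test, 0 of 11 rows passed an adjusted p of 0.05, against 15.2% of all 441 tested rows, with 9.98% higher and 5.22% lower. At an unadjusted p under 0.05 there were 3 miR-30 rows, all with lower levels (miR-30a-5p, miR-30d-5p and miR-30d-3p), against 34.5% of tested rows in either direction and 13.4% lower. The groups did not overlap in the same 3 rows, against 42.4% of all tested rows and 17.2% with lower levels. The median log2 fold change was -0.32 over the 11 rows, with 8 negative and 3 positive, and 0.08 over all tested rows. Among the 285 mouse-named tested rows the median was -0.07, with 153 negative and 132 positive.

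MiR-30a-5p was the most abundant mouse-named row of the controls by mean level and ranked 5 with MITF overexpression. It stood at 66080, 39997 and 38374 CPM in the controls and at 27356, 24887 and 31579 CPM with MITF overexpression. The control libraries lie above the MITF overexpression libraries, and control replicate 1 stands well above the other controls. The group means were 48150 ± 15549 and 27941 ± 3384 CPM (SD, n = 3), a level 1.72-fold lower (adjusted p = 0.0580 by edgeR). Over 14 alternative settings the log2 fold change ran from -0.88 to -0.52 and the adjusted p from 0.0218 to 0.214. It was past the threshold in 3 of them, with DESeq2 (0.0218), without the count filter (0.0320) and among mouse-named rows alone (0.0370). The share of rows called lower was 9.75%, 1.86% and 8.04% in those 3 settings. The log2 fold change nearest to 0, -0.52 with an adjusted p of 0.112, was that without control replicate 1. The authors' deposited table lists miR-30a-5p at a fold change of 0.595 and an unadjusted p of 0.163.

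MiR-30d-5p, which differs from miR-30a-5p by a single base, showed a similar pattern over the libraries. Its levels were 44283, 26916 and 27199 CPM in controls and 20372, 19647 and 23350 CPM with MITF overexpression, and it ranked 7 and 10 among mouse-named rows. Control replicate 1 is again the highest and the groups are apart, at means of 32799 ± 9946 and 21123 ± 1962 CPM (SD, n = 3). The level was 1.55-fold lower (adjusted p = 0.0910 by edgeR), with a log2 fold change of -0.39 without control replicate 1. The separation depended on the scaling, since as a share of all tabulated reads miR-30d-5p held 3.95%, 2.70% and 2.53% in controls and 1.98%, 2.07% and 2.61% with MITF overexpression, where the groups overlap. For miR-30a-5p these shares were 5.89%, 4.01% and 3.57% and 2.67%, 2.63% and 3.53%, still apart by a narrow margin. The authors' deposited table lists miR-30d-5p at a fold change of 0.660 and an unadjusted p of 0.196.

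MiR-30e-5p, from the Nfyc locus, stood at 16556, 12972 and 10058 CPM in controls and at 10820, 7941 and 12922 CPM with MITF overexpression. These groups overlap, since the lowest control lies below 2 of the MITF overexpression libraries. By edgeR the log2 fold change was -0.32 ± 0.26 (SE) and the adjusted p 0.426. Leaving out control replicate 1 gave -0.15, leaving out MITF overexpression replicate 2 gave -0.084 and leaving out MITF overexpression replicate 3 gave -0.50.

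MiR-30b-5p and miR-30c-5p were about an order of magnitude less abundant than miR-30a-5p and ranked between 45 and 47 among mouse-named rows. MiR-30b-5p stood at 2802, 3457 and 3019 CPM in controls and at 3450, 2463 and 3289 CPM with MITF overexpression. MiR-30c-5p, which is made by precursors on chromosomes 1 and 4, stood at 2903, 3206 and 2827 CPM and at 3573, 2581 and 3245 CPM. In both rows MITF overexpression replicate 1 was above or close to the highest control, replicate 2 was the lowest of the 6 libraries, and the groups overlap. The adjusted p was 0.975 for miR-30b-5p and 0.860 for miR-30c-5p by edgeR. MiR-30b-5p and miR-30c-5p stood in a ratio between 0.955 and 1.08 in every library. Their read counts were not whole in 2 and 3 libraries, as happens when a read is split among rows. Which rows shared those reads is not stated, and how well these similar members were separated was not tested. Among the other 5p arms, the counts of miR-30a and miR-30e were not whole in 1 library each and those of miR-30d were whole in all 6.

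**Figure D1:**
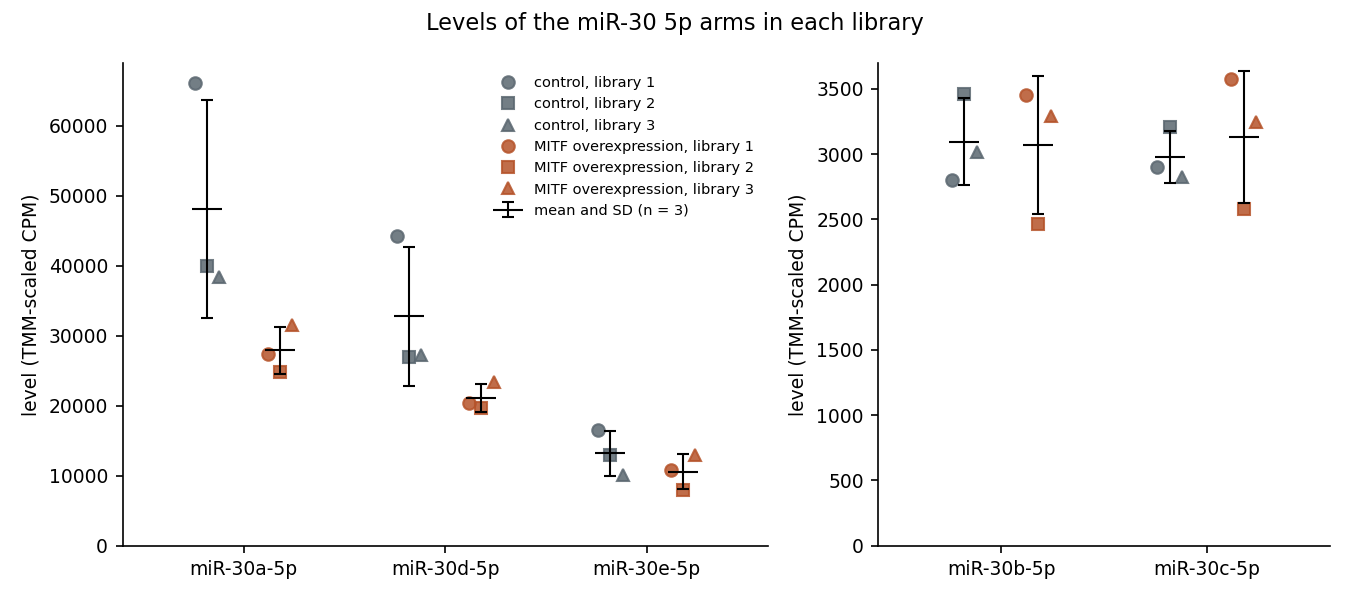
Levels of the 5p arms in TMM-scaled CPM for 3 control and 3 MITF overexpression libraries, with miR-30a, d and e on the left axis and the less abundant miR-30b and c on the right, points for libraries and bars for the mean and SD. Control replicate 1 stands highest for miR-30a-5p and miR-30d-5p, whose groups do not overlap, while the groups of the other 3 arms overlap.

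Summed over the 5 arms, miR-30 5p stood at 132624, 86546 and 81476 CPM in controls and at 65571, 57519 and 74384 CPM with MITF overexpression. The controls lie above the other group, with control replicate 1 far above the rest. The log2 ratio of the means was -0.61 and, without control replicate 1, -0.35. The separation depended on the scaling, because as a share of all tabulated reads the sum was 11.8%, 8.68% and 7.58% in controls and 6.39%, 6.07% and 8.31% with MITF overexpression, where the groups overlap. A sum over chosen members was given no test.

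Shares within the family do not depend on scaling between libraries and compare the members with each other. MiR-30a-5p made up 49.8%, 46.2% and 47.1% of the miR-30 5p reads in controls and 41.7%, 43.3% and 42.5% with MITF overexpression. Every MITF overexpression library is below every control, and the means differed by -5.23 percentage points, at 47.7 ± 1.88% against 42.5 ± 0.774% (SD, n = 3). MiR-30b-5p made up 2.11%, 3.99% and 3.71% of these reads and then 5.26%, 4.28% and 4.42%. MiR-30c-5p made up 2.19%, 3.70% and 3.47% and then 5.45%, 4.49% and 4.36%. For both, the MITF overexpression libraries are above the controls, and control replicate 1 is the lowest. Their means differed by 1.38 and 1.65 percentage points, and by 0.81 and 1.18 without control replicate 1. For miR-30a-5p the difference was -4.18 percentage points without that library. Shares within a library sum to the whole, so a lower share of 1 member raises those of others. The levels of miR-30b-5p and miR-30c-5p themselves had log2 fold changes of only -0.01 and 0.07. MiR-30d-5p held 31.1% to 33.4% in controls and 31.1% to 34.2% with MITF overexpression, and miR-30e-5p 12.3% to 14.99% and 13.8% to 17.4%, so their groups overlap. The two-sided exact permutation p was 0.1 for miR-30a-5p, miR-30b-5p and miR-30c-5p, the smallest that 3 libraries against 3 allow, and 0.9 and 0.2 for miR-30d-5p and miR-30e-5p. Adjusted over the 5 members by Benjamini-Hochberg, these exact p were 0.167, 0.9 and 0.25, and this design cannot reach 0.05. The 95% Wilson intervals of the shares are at most 1.49 percentage points wide and cover counting error only.

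**Figure D2:**
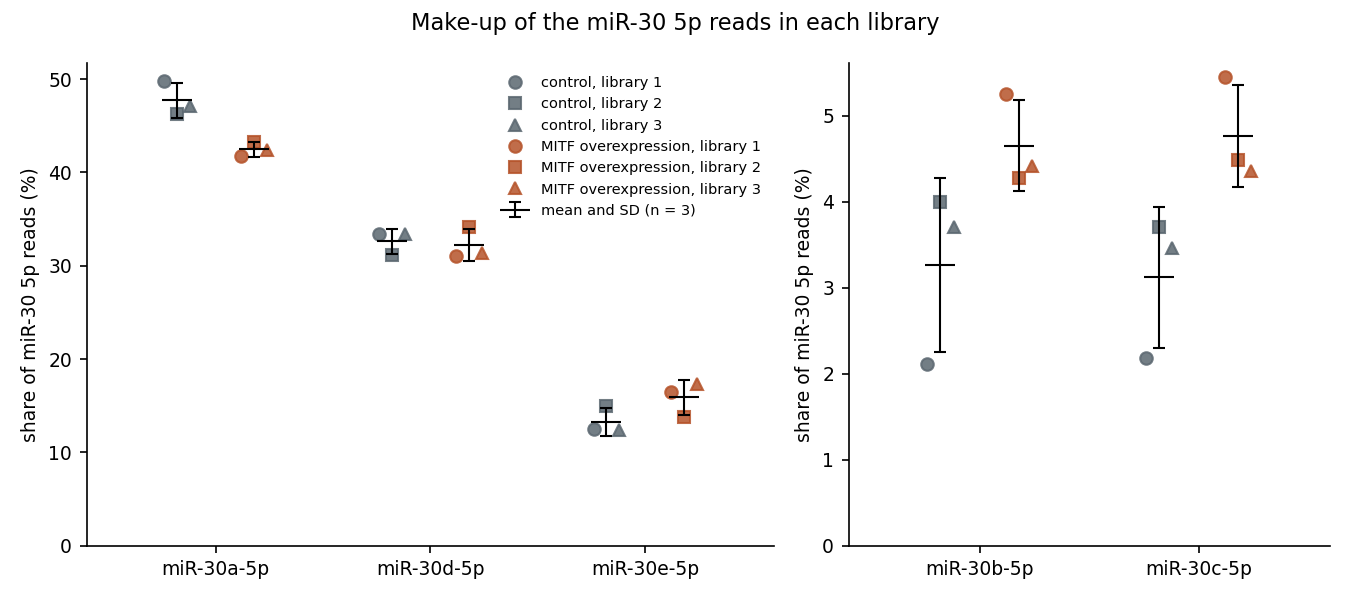
Share of each member in the miR-30 5p reads of a library, in percent, for 3 control and 3 MITF overexpression libraries, with points for libraries and bars for the mean and SD. The share of miR-30a-5p lies between 46.2% and 49.8% in controls and between 41.7% and 43.3% with MITF overexpression, and the shares of miR-30b-5p and miR-30c-5p lie higher with MITF overexpression than in any control. Shares within a library sum to the whole, so they do not move separately.

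The ratio of miR-30a-5p to miR-30d-5p, which differ at base 12, varied little within a group. It was 1.49, 1.49 and 1.41 in controls and 1.34, 1.27 and 1.35 with MITF overexpression. The groups did not overlap in 4 of the 10 pairs of 5p arms, namely miR-30a-5p with miR-30b-5p, miR-30c-5p and miR-30d-5p, and miR-30c-5p with miR-30d-5p. These pairs share members, miR-30a-5p most often, so they are not separate results. For the levels of single rows, the groups did not overlap in 42.4% of all 441 tested rows. Taken as sequence groups, a division made after the values were seen, miR-30a, d and e together had 22.2, 12.0 and 12.9 times the reads of miR-30b and c in controls and 8.34, 10.4 and 10.4 times with MITF overexpression. The groups do not overlap, and control replicate 1 has the most skewed ratio.

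Members of one locus were then set against each other, since neighbouring precursors can be cut from one transcript. On chromosome 15, miR-30d-5p had 15.8, 7.79 and 9.01 times the reads of miR-30b-5p in controls and 5.91, 7.97 and 7.10 times with MITF overexpression, and the groups overlap by a narrow margin. The 3p arms of the same precursors leaned the same way. MiR-30d-3p had 0.380, 0.496 and 0.389 reads for each read of miR-30b-3p in controls and 0.305, 0.0660 and 0.167 with MITF overexpression, without overlap. On chromosome 1, miR-30a-5p had 22.8, 12.5 and 13.6 times the reads of miR-30c-5p in controls and 7.66, 9.64 and 9.73 times with MITF overexpression, also without overlap. For the 3p arms of that locus the ratio of miR-30a-3p to miR-30c-2-3p was 3.05, 2.34 and 2.80 and then 4.14, 2.31 and 1.99, and these groups overlap. On chromosome 4 the ratio of miR-30e-5p to miR-30c-5p was 5.70, 4.05 and 3.56 and then 3.03, 3.08 and 3.98, and that of miR-30e-3p to miR-30c-1-3p was 2.94, 1.72 and 2.94 and then 1.90, 0.661 and 2.39, both with overlap. MiR-30c-5p comes from both chromosomes, so its ratios are not of 1 locus.

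**Figure D3:**
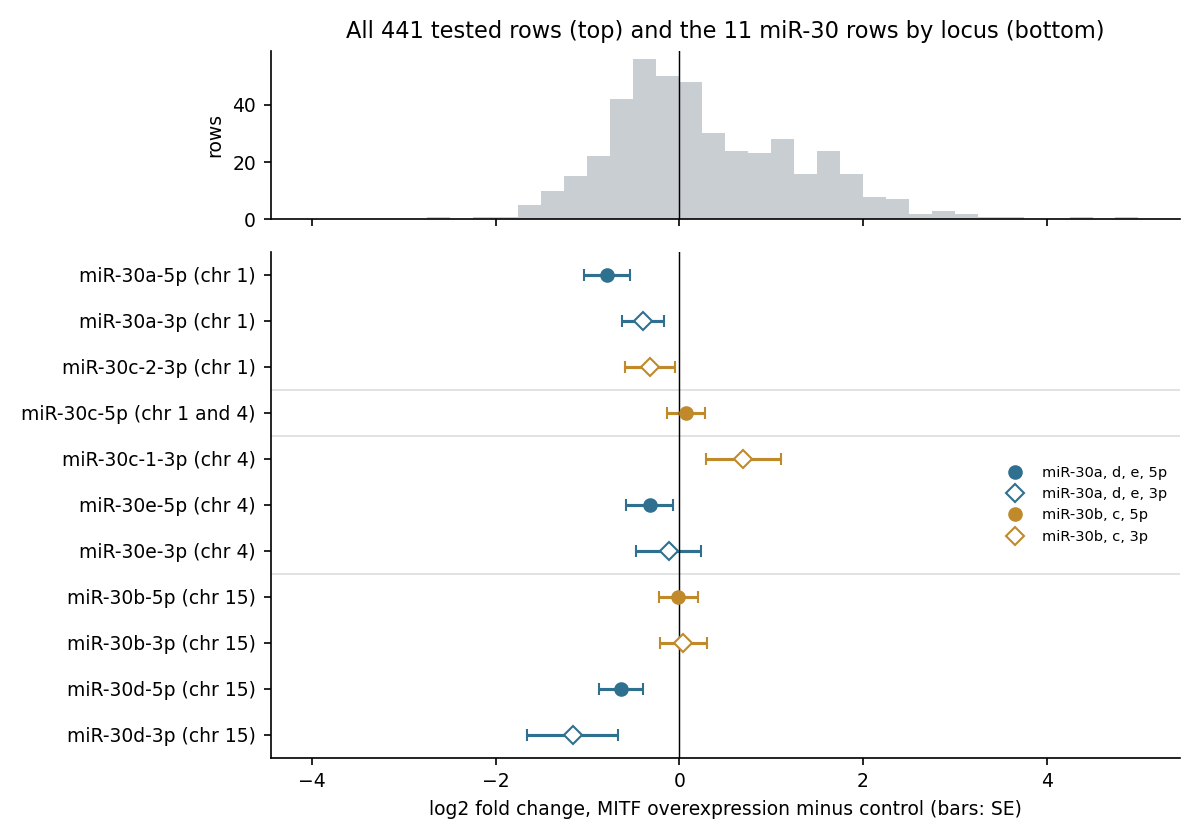
Log2 fold change of MITF overexpression minus control with its SE for the 11 miR-30 rows ordered by locus (bottom), and the number of rows by log2 fold change among all 441 tested rows (top). The 5p arms of miR-30d and miR-30b, from the one locus on chromosome 15, have log2 fold changes of -0.63 and -0.01, a difference that was not tested, and none of the 11 rows passed the test.

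The 3p arms, usually the less retained strand, together held under 4% of the family's reads, since the 5p arms took 96.1% to 97.6%. MiR-30d-3p was the 3p row furthest below its control level. It had 46, 58 and 70 reads in controls and 46, 7 and 25 with MITF overexpression, or 150, 151 and 158 CPM against 105, 23.7 and 73.1 CPM. The controls are close together and all above the other group, which is lowest in MITF overexpression replicate 2. By edgeR the log2 fold change was -1.16 ± 0.50 (SE) and the adjusted p 0.128. The log2 fold change was -0.73 without MITF overexpression replicate 2 and -1.67 without MITF overexpression replicate 1.

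MiR-30a-3p, the most abundant 3p arm, stood at 1694, 1105 and 1524 CPM in controls and at 1184, 1113 and 982 CPM with MITF overexpression. The groups overlap through control replicate 2, and the adjusted p was 0.251 by edgeR for a log2 fold change of -0.40 ± 0.23 (SE). MiR-30b-3p ranged from 305 to 406 CPM and from 345 to 439 CPM, and miR-30e-3p from 162 to 298 CPM and from 139 to 265 CPM. Both overlap between the groups (adjusted p = 0.926 and 0.869 by edgeR).

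The miR-30c 3p arms, which separate the precursors on chromosomes 4 and 1, had log2 fold changes of opposite sign. MiR-30c-1-3p, from the Nfyc intron, had 31, 36 and 35 reads in controls and 61, 62 and 33 with MITF overexpression, or 101, 93.8 and 79.0 CPM against 139, 210 and 96.5 CPM. By edgeR its log2 fold change was 0.70 ± 0.40 (SE) and its adjusted p 0.251. MiR-30c-2-3p, from chromosome 1, stood at 556, 472 and 544 CPM and at 286, 482 and 494 CPM, with a log2 fold change of -0.32 ± 0.27 (SE) and an adjusted p of 0.457. Read for read, miR-30c-1-3p had 0.182, 0.199 and 0.145 times the reads of miR-30c-2-3p in controls and 0.488, 0.437 and 0.195 times with MITF overexpression. The groups overlap because MITF overexpression replicate 3 lies within the control range.

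The balance of the arms within a precursor differed far more between members than between groups. In controls the reads of the 5p arm were 206 times those of the 3p arm for miR-30d, 57.5 times for miR-30e, 32.8 times for miR-30a, 8.39 times for miR-30b and 4.83 times for miR-30c with both its 3p arms, as geometric means. With MITF overexpression these factors were 359, 50.3, 25.5, 7.98 and 5.55, in the same order of members. On the log2 scale, with a prior of 0.5 read per arm, the means of the groups differed by 0.80 for miR-30d, -0.37 for miR-30a, 0.20 for miR-30c, -0.19 for miR-30e and -0.07 for miR-30b. The value for miR-30d was 0.25 without MITF overexpression replicate 2, which had 7 reads of its 3p arm, and 1.25 without MITF overexpression replicate 1, and that for miR-30a was -0.56 without control replicate 3 and -0.24 without control replicate 1. The groups overlap for all 5 members. The two-sided exact permutation p was 0.2 for miR-30a and miR-30d and 0.6 to 0.7 for the others, and adjusted over the 5 members these exact p were 0.5 and 0.7.

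**Figure D4:**
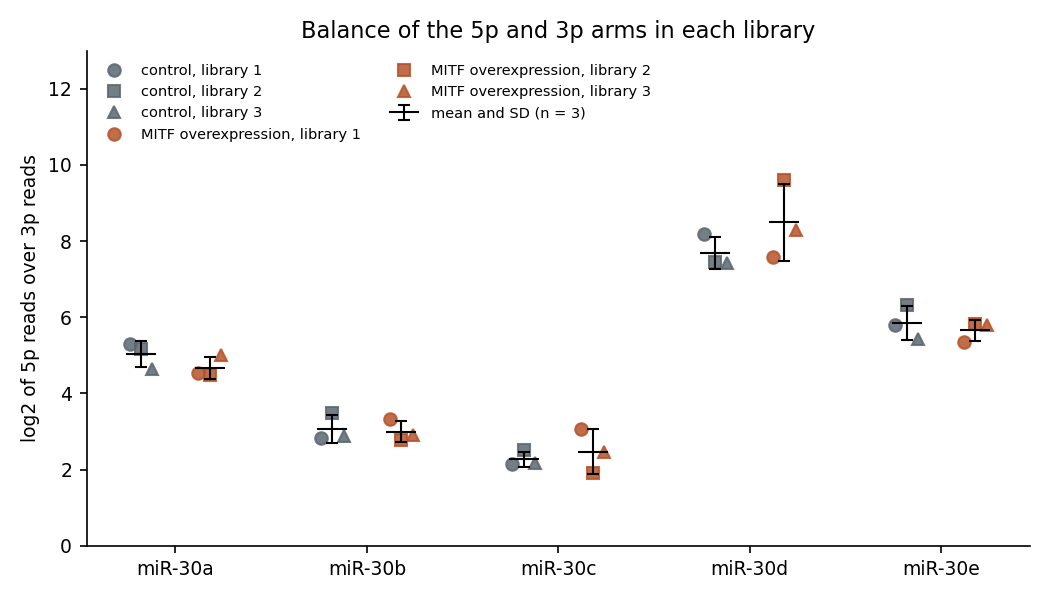
Log2 of 5p reads over 3p reads for each member, with a prior of 0.5 read per arm, in 3 control and 3 MITF overexpression libraries, points for libraries and bars for the mean and SD. MiR-30d has the most one-sided arms and miR-30c the most even ones in both groups, and the groups overlap for each member.

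The rows whose pattern over the 6 libraries was most like that of the summed miR-30 5p level were sought among 199 mouse-named rows outside the family with a mean of at least 100 CPM. Likeness was the root mean square difference of log2 CPM after each row was centred on its own mean. Its median over the 199 rows was 0.43. The lowest differences were 0.10 for miR-103-3p, a widely expressed microRNA, 0.12 for a substituted variant named let-7j, 0.14 for miR-450a-5p, 0.14 for a substituted variant of let-7a-1-3p and 0.15 for an end variant of miR-582-3p. MiR-103-3p stood at 3312, 1773 and 1773 CPM in controls and at 1465, 1316 and 1491 CPM with MITF overexpression, with the same high control replicate 1 as miR-30a-5p. By the same measure miR-30a-5p, miR-30d-5p and miR-30e-5p, which make up most of the sum, stood at 0.09, 0.06 and 0.19, and miR-30b-5p and miR-30c-5p at 0.41 each.

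Other microRNAs that, like miR-30, are reported to restrain epithelial-mesenchymal transition differed in direction from row to row. Their summed level was 8611, 7138 and 6158 CPM in controls and 5389, 4074 and 4441 CPM with MITF overexpression. These groups do not overlap, and the sum was given no test. Its most abundant rows were miR-34c-5p, miR-101b-3p and miR-34a-5p. 12 of 13 names on this list had a row, and 9 of 15 rows were tested. Of these, 1 was higher and 2 were lower past the test, against 9.98% higher and 5.22% lower among all 441 tested rows. The median log2 fold change was -0.42, against 0.08 over all tested rows and -0.07 over the mouse-named tested rows. Among the tested rows, miR-200b-3p, miR-205-5p and miR-34b-3p had at most 66 reads in any library and 0 in some. The SE of their log2 fold changes was 1.36, 1.16 and 1.09, so their signs are uncertain. MiR-34c-5p, which p53 induces, fell from 3031, 2883 and 2120 CPM in controls to 1603, 1520 and 1599 CPM with MITF overexpression (adjusted p = 0.0350 by edgeR). MiR-101b-3p, listed as an end variant and known for repressing the histone methyltransferase Ezh2, fell from 3598, 2247 and 2106 CPM to 1470, 865 and 1485 CPM, with an adjusted p of 0.0348. MiR-145a-5p, listed as an end variant and also on the mesenchymal list, rose from 19.6, 86.0 and 104 CPM to 320, 319 and 152 CPM, with an adjusted p of 0.0416. The groups do not overlap in any of these 3 rows, which were named because they passed the test on the same values. Over the whole list the groups did not overlap in 5 of the 9 tested rows, against 42.4% of all tested rows.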

How the data were processed

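The authors deposited 1 table of 1560 rows with estimated counts per library (columns marked raw), which need not be whole, and normalized values (a signal), per the file headers. It also holds the authors' group means, fold change and unadjusted p-value from a t test, per the file headers. The build was mm9, per the submitters' processing notes, and no label or header names the aligner or counter. 4 empty lines were not used. The table of read classes was not used.

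After rounding, the estimated counts went into edgeR 4.0.16, run in R 4.3.3 (TMM scaling, filterByExpr at a minimum count of 10, quasi-likelihood test, group as the only term). The fit was also run on counts simulated with the same dispersion for every row. That run checked the recovered log2 fold changes, and not the error rate at the spread of these data. Adjustment was by Benjamini-Hochberg over all 441 tested rows, with a threshold of 0.05, and members were read from that fit. The labels do not say that replicates were separate cultures, so p-values reflect the spread among these 6 libraries alone, and that spread may be technical. Levels are TMM-scaled CPM. Each read is a whole small RNA, so levels were not divided by length. Shares and arm ratios were put to two-sided exact permutation tests (SciPy 1.17.1). Alternatives were DESeq2 1.42.0, limma 3.58.1 on log2 of the normalized value plus 1, other scalings, filters and row sets, a replicate block and leaving out each library. Rows with a mean of at least 100 CPM in either group were to be given by library or range. The members and lists were chosen with earlier results of these data known.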

Additional observations from a re-analysis of the deposited data

How the results depend on the processing

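The number of miR-30 rows past the threshold was 0 and became 1, miR-30a-5p, with DESeq2, without the count filter and among mouse-named rows alone. It was 0 under the other 11 alternatives, with each library left out among them. Among all tested rows 67 passed, 110 with DESeq2, 0 to 56 with 1 library left out (0 by edgeR without MITF overexpression replicate 3, with 135 at unadjusted p under 0.05, 11 without control replicate 2 and 14 without MITF overexpression replicate 2) and 2 with the replicate block. Deviations of same-numbered libraries from their group means had correlations of -0.05, 0.04 and -0.01. Those of differently numbered libraries ran from -0.09 to 0.07. Such values cannot tell whether equal numbers share a culture or day, which the labels do not state. The block called no miR-30 row.

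The log2 ratio of the summed 5p level, -0.61, ran from -0.74 to -0.35 with 1 library left out and was -0.43 with total-count scaling and -0.57 with the authors' normalized values. It was -0.012 with rows without a suffix only, which leaves miR-30b-5p alone, so shares could not be computed there. After seeing the data, it was also computed without miR-30a-5p (-0.46) and with the most abundant row left out before scaling (-0.65). The log2 fold changes of miR-30a-5p, miR-30d-5p, miR-30e-5p, miR-30a-3p, miR-30c-2-3p and miR-30d-3p were negative, and that of miR-30c-1-3p positive, under all 14 alternatives.

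Values near 0 changed sign, and the cause was not tested. MiR-30b-5p went to 0.15 with total-count scaling, 0.015 among mouse-named rows, 0.042 with rows summed per arm, 0.012 with limma, and between -0.13 and 0.18 with 1 library left out. MiR-30e-3p went to 0.058 with total-count scaling. With 1 library left out, miR-30e-3p ran from -0.34 to 0.16, miR-30b-3p from -0.071 to 0.19 and miR-30c-5p from -0.057 to 0.25. The group difference in the share of miR-30d-5p ran from -1.39 to 0.149 percentage points with 1 library left out. That in the log2 arm ratio ran from -0.23 to 0.14 for miR-30b, -0.10 to 0.49 for miR-30c -0.40 to 0.044 for miR-30e, 0.25 to 1.25 for miR-30d and -0.56 to -0.24 for miR-30a. Arm ratios kept their sign with a prior of 2 reads. Low counts limit the 3p arms most, with as few as 7 reads for miR-30d-3p in 1 library.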
